A study of Mus musculus with 24 samples.

Results

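Isoleucine tRNAs and the fragments cut from them were followed through 3 sets of libraries from mouse embryonic stem cells. The members were the rows whose tRNA name ends in Ile and an anticodon. They were 17 of the 53900 features in the crosslinking and RNA immunoprecipitation tables, where 435 features were tRNA genes, and 51 of the 1305 rows in the tRNA fragment table. The 17 genes held 11 with the anticodon AAT (IleAAT), 5 with TAT (IleTAT) and 1 with GAT (IleGAT), and each gene had 3 fragment rows, named tRF5, tRF3a and tRF3b.

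In the crosslinking and immunoprecipitation (CLIP) set, TET2 CLIP libraries were set against CLIP input libraries. Both came from E14 cells whose Tet2 carries an HA and His tag, in the clones 65 and 75, with 2 TET2 CLIP and 2 input libraries per clone. These cells, inputs included, had received 4-thiouridine at 500 µM for 4 hours and UVB at 400 mJ/cm2. In the RNA immunoprecipitation (RIP) set, 2 libraries of RNA pulled down for 5-hydroxymethylcytosine (hm5C) were set against 2 RIP inputs, all from untreated cells of the strain label B6;129. In the small RNA set, RNA of 14 to 38 nt came from 3 Tet2 KO and 3 WT cultures in experiment 1, and from 3 Tet2 KO and 3 E14 cultures in experiment 2, all with the strain label B6; 129. Neither the kind of Tet2 lesion nor the number of knockout clones is given in the sources used here. All cells were grown with leukaemia inhibitory factor, CHIR99021 at 3 µM and PD0325901 at 1 µM. The library kit (TruSeq in experiment 1, NEBNext in experiment 2), the control line and the knockout set all changed together between the experiments.

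A tRNA carries an amino acid to the ribosome and reads the codon with its anticodon. In animals the A at the first anticodon position of IleAAT is deaminated to inosine, which lets this tRNA read most isoleucine codons, while IleTAT reads the rare codon AUA through a modified uridine. IleTAT genes of mammals are transcribed with an intron that must be spliced out. Small RNAs are cut from mature tRNAs, those of the 5′ side being called tRF5 and those of the 3′ end tRF3. The exact limits of the 3 kinds are not given in the sources used here. The enzyme TET2 oxidises the methyl group of 5-methylcytosine, which yields hm5C.

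The RefSeq annotation of GRCm38.p6, the assembly behind the mm10 build named in the submitters' processing notes, lists 16 nuclear isoleucine tRNA genes. The number of these genes matched the number of members on 8 of the 9 chromosomes involved, the exception being chromosome 2, which held the 1 IleGAT member and no RefSeq isoleucine tRNA gene. The chromosome 13 cluster, with 8 of the genes, spans chr13:21855320-23438182. Of the 16 genes, 12 are 73 or 74 bases long and 4 are 93 to 96 bases long, the 4 longer ones lying on chromosomes 7, 13, 13 and 17. The 4 IleTAT members with more than a few fragment counts carry the same chromosome names, in chr7.tRNA158-IleTAT, chr13.tRNA981-IleTAT, chr13.tRNA999-IleTAT and chr17.tRNA515-IleTAT. The anticodon names differ, however. RefSeq names only 1 of the longer genes as TAT (n-TItat14, chromosome 13) and the others as AAT (n-TIaat16, n-TIaat15 and n-TIaat17). Its chromosome 1 gene is also named AAT (n-TIaat13), where the member is chr1.tRNA583-IleTAT. Members were not matched to single RefSeq genes, and no tRNA sequence was used here.

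The libraries differed widely in depth. Total counts were 221060 to 453944 in TET2 CLIP and 913002 to 4729463 in CLIP input, 1564014 and 2100187 in hm5C RIP and 4641963 and 4889943 in RIP input, and 96070 to 173450 fragment counts in the small RNA libraries. In the inputs all 10 embryonic stem cell markers were counted, with summed levels of 1917 to 3155 CPM (counts scaled to 1e+06 per library) in CLIP input, where none of the lists for endoderm, fibroblast, mesoderm and trophoblast passed 18.4 CPM. In RIP input the stem cell markers summed to 38.1 to 42.9 CPM, and none of the other lists passed 3.02 CPM. Tet2 itself was at 331 ± 38.5 CPM in TET2 CLIP and 336 ± 10.4 CPM in CLIP input (SD, n = 4 each). In the hm5C RIP libraries 55.2% and 60.6% of all counts fell on Acsl6, an acyl-CoA synthetase gene, against 0.255% and 0.167% in RIP input. The fibroblast marker Col1a2 (33.4 ± 1.45 CPM in hm5C RIP, 2.82 ± 0.417 CPM in RIP input, SD, n = 2 each) and the endoderm marker Sox7 (5.70 ± 1.10 CPM in hm5C RIP, 0 in both inputs) were called higher in hm5C RIP, where 33.0% of all features were. Col1a2 and Sox7 passed the filter on low counts only through hm5C RIP, so their calls are part of the selection. Only 1 of 4 fibroblast and 1 of 5 endoderm markers were tested there. Of the 10 embryonic stem cell markers 6 were tested, with 2 called lower and 0 higher. Among the small RNA libraries WT replicate 1 stood apart, with 85.3% of its fragment counts in tRF5 and a scaling factor of 0.594 where the other 5 libraries of experiment 1 had 1.00 to 1.22. The fragment table has no row for Tet2, so the knockout was not checked.

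Isoleucine tRNAs were more abundant in TET2 CLIP than in input. The summed counts of IleAAT genes stood at 110, 78.3, 53.4 and 71.5 CPM in the TET2 CLIP libraries (both of clone 65, then both of clone 75), against 3.83, 4.17, 7.52 and 8.15 CPM in the inputs of the same clones. The highest input lay far below the lowest TET2 CLIP library. The log2 change over both clones was 3.71 (SE 0.29, edgeR quasi-likelihood test, adjusted p = 2.37e-11). IleTAT genes summed to 47.3, 68.5, 55.5 and 71.5 CPM in TET2 CLIP, against 5.31, 4.86, 20.04 and 14.0 CPM in input. Again no input library reached the TET2 CLIP libraries, but the clone 75 inputs lay above those of clone 65. The log2 change was 2.74 (SE 0.28, adjusted p = 4.25e-08). These levels rest on few molecules, since all isoleucine genes together had 31, 30, 51 and 38 counts in TET2 CLIP and 31, 53, 22 and 50 counts in input. No input library held IleAAT above 8.15 CPM, and the sums passed the filter on low counts through TET2 CLIP, so that a higher level there was part of the selection; with no filter both sums were still called. Summed over isoacceptors, 8.64% of all features tested were called higher over both clones, 7.93% in clone 65 and 5.88% in clone 75. With library size alone, 7.42% of all sums were called higher and 9.34% lower over both clones, against 8.64% and 5.73% with TMM scaling.

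**Figure D1:**
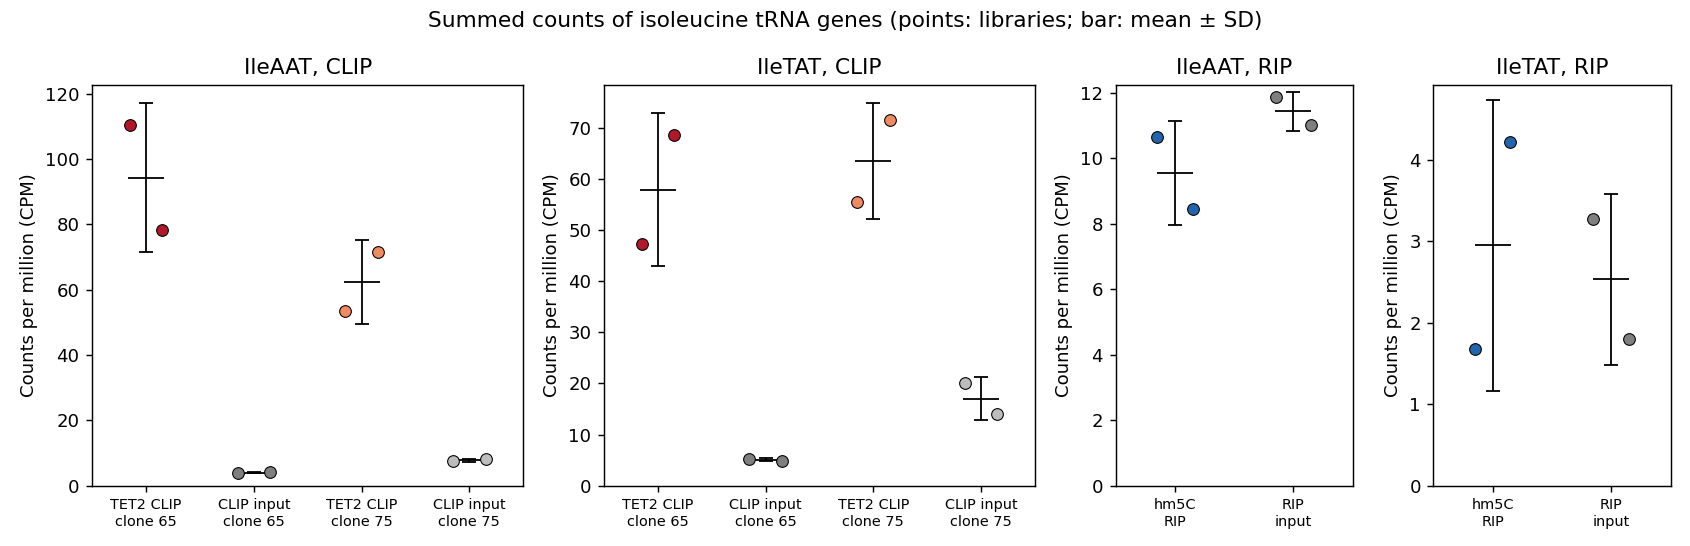
Summed counts of IleAAT and IleTAT genes in CPM (linear axis from 0, a separate scale per panel) for each CLIP and RIP library, with points for libraries and bars for the mean ± SD of 2 libraries. Every TET2 CLIP library lies above every input library for both isoacceptors, whereas in RIP both IleAAT points of hm5C RIP lie below both inputs, and the IleTAT points of hm5C RIP, 1.68 and 4.22 CPM, lie on either side of the inputs, 3.28 and 1.80 CPM.

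Both clones gave the increase, and the log2 changes of the sums were larger in clone 65 without passing a test of the difference. For IleAAT the log2 change was 4.51 in clone 65 and 2.91 in clone 75, and for IleTAT 3.51 in clone 65 and 1.96 in clone 75. The difference, clone 75 minus clone 65, was -1.61 for IleAAT and -1.55 for IleTAT (adjusted p = 0.157 for each), where 2.58% of all features were called in either direction. Smaller changes in clone 75 were general among tRNAs: the 37 isoacceptor sums tested had a median difference of -1.04, with 9 called lower and 0 higher. Without input replicate 2 of clone 75, the IleTAT value in clone 75 was 1.56 (adjusted p = 0.0895).

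Of the 17 single genes, 8 had any count in the CLIP libraries and 3 passed the filter on low counts. The gene chr11.tRNA393-IleAAT had 14, 12, 12 and 17 counts in TET2 CLIP, against 6, 9, 3 and 9 in input. Scaled to depth this gave 55.5 ± 20.8 CPM in TET2 CLIP and 2.79 ± 1.31 CPM in input (SD, n = 4 each), with no overlap. Its log2 change was 4.29 (SE 0.43, adjusted p = 1.49e-09). The gene chr7.tRNA158-IleTAT had 7, 11, 15 and 4 counts in TET2 CLIP, against 9, 8, 5 and 6 in input, or 34.4 ± 15.9 CPM in TET2 CLIP and 3.26 ± 2.09 CPM in input. Its libraries did not overlap either, and its log2 change was 3.66 (SE 0.46, adjusted p = 4.42e-07). The third, chr13.tRNA981-IleTAT, had 1, 1, 8 and 8 counts in TET2 CLIP, against 2, 8, 4 and 13 in input, and its groups overlapped in CPM (log2 change 2.05, SE 0.72, adjusted p = 0.133). Thus 2 of the 17 genes were called higher over both clones, where 8.99% of all features tested were. All 3 passed the filter through TET2 CLIP alone, since no input library held any of them above 6.26 CPM, so this count is part of the selection and says nothing of the other 14 genes. DESeq2 also called chr13.tRNA981-IleTAT higher (adjusted p = 0.0218).

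Within clones the same 2 genes were called in clone 65, with log2 changes of 5.26 for chr11.tRNA393-IleAAT and 4.55 for chr7.tRNA158-IleTAT, where the background was 8.22%. In clone 75 all 3 tested genes were called, at 3.31, 2.77 and, for chr13.tRNA981-IleTAT, 1.95 (adjusted p = 0.0464), where the background was 6.18%. That last call was lost in every fit that left out 1 library. The call of chr7.tRNA158-IleTAT in clone 75 was lost without TET2 CLIP replicate 1 of that clone (adjusted p = 0.445), without either input replicate of that clone (0.0855 and 0.470) and without either input replicate of clone 65 (0.112 and 0.0749). No isoleucine gene was called in the difference of clones by edgeR or DESeq2, 1 had an unadjusted p under 0.05, and 2.54% of all features were called.

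Counts in CLIP fell on few gene copies. Of the 11 IleAAT genes, 8 had no count in any of the 8 libraries, which allows a share of up to 0.00136% of the counts (3 counts) in the shallowest TET2 CLIP library. The IleAAT counts fell on chr11.tRNA393-IleAAT, chr13.tRNA100-IleAAT and chr13.tRNA980-IleAAT. chr13.tRNA100-IleAAT had 7, 3, 6 and 2 counts in TET2 CLIP, against 6, 13, 2 and 7 in input, and did not pass the filter although its lowest TET2 CLIP level, 7.55 CPM, lay above its highest input, 3.18 CPM. Among IleTAT genes, chr17.tRNA515-IleTAT had 1, 2, 3 and 7 counts in TET2 CLIP, against 6, 10, 5 and 11 in input, and chr1.tRNA583-IleTAT none in TET2 CLIP, against 1, 2, 2 and 1 in input. The IleGAT gene had 1 count in 1 TET2 CLIP library and 1 in each of 2 inputs. Gene copies of one isoacceptor can be near-identical, the sources used here do not say how reads with several matches were assigned, and reads split among copies cannot be told apart.

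The increase was shared by nearly all isoacceptor sums tested. Of 52 isoacceptors named, 37 had a sum that was tested. Of these, 36 were called higher over both clones and none lower, with a median log2 change of 3.02. Any sum that passed the filter on low counts through TET2 CLIP, as those of isoleucine did, was selected for a higher level there. How many other sums passed in that way was not counted. IleAAT ranked eighth from the top of these 37 and IleTAT stood below the median. Isoleucine genes took 0.0140%, 0.0134%, 0.0112% and 0.0149% of all counts in TET2 CLIP, against 0.00105%, 0.00112%, 0.00241% and 0.00220% in input. All 4 TET2 CLIP shares lay above all inputs (exact permutation test, two-sided, p = 0.0286, the smallest 4 against 4 allow, adjusted p = 0.0571 over 4 shares). As a share of tRNA counts, isoleucine took 1.56%, 1.21%, 1.91% and 2.89% in TET2 CLIP, against 0.413%, 0.424%, 1.52% and 1.22% in input. The groups overlapped, with both inputs of clone 75 above TET2 CLIP replicate 2 of clone 65 (log2 ratio 1.25, exact permutation p = 0.0857). By isoacceptor, the log2 ratio of the share of tRNA counts was 1.81 for IleAAT (exact p = 0.0286, adjusted p = 0.0571) and 0.75 for IleTAT (exact p = 0.343). Within a clone, 2 against 2 libraries cannot go below an exact p of 0.333.

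Genes that make and charge tRNAs were read in the same tables from a list of 52, of which 39 passed the CLIP filter. Over both clones 3 were called higher and 1 lower, shares no larger than those of all features, of which 8.99% were called higher and 5.83% lower. The list's median log2 change was -0.12, where that of all features was -0.03. Rpph1, the RNA of RNase P, which trims the 5′ end of tRNA precursors, was at 1309 ± 636 CPM in TET2 CLIP and 194 ± 25.9 CPM in input (log2 change 2.61, adjusted p = 4.26e-16). Elac2, the nuclease that trims the 3′ end, rose by a log2 of 0.89 (adjusted p = 0.0286) and Dicer1, which cuts double-stranded RNA, by 0.66 (adjusted p = 0.00124). Pop1, a protein of RNase P, was lower by a log2 of -0.84 (adjusted p = 0.0308). Iars, the cytosolic isoleucyl-tRNA synthetase, had a log2 change of -0.63 (adjusted p = 0.0682), Yrdc, which works in the threonylcarbamoyl modification of tRNAs, one of -1.12 (adjusted p = 0.145), and Iars2, the mitochondrial isoleucyl-tRNA synthetase, one of -0.62 (adjusted p = 0.165). In clone 65 alone Ssb, the La protein that binds the ends of new polymerase III transcripts, was also called higher (log2 1.53, adjusted p = 0.00981), and its change differed between the clones (adjusted p = 0.0294).

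The hm5C pull-down gave no call for isoleucine tRNAs. All isoleucine genes together had 22 and 31 counts in hm5C RIP, against 62 and 58 in RIP input, spread over 9 of the 17 genes. IleAAT summed to 10.7 and 8.44 CPM in hm5C RIP, against 11.9 and 11.0 CPM in RIP input. Both hm5C RIP values lay below both inputs.

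In the fit, IleAAT stood at -0.27 on the log2 scale (SE 0.43, adjusted p = 0.634 in edgeR), in a comparison where 54.8% of the summed features were called in either direction. IleTAT, with 3 and 10 counts in hm5C RIP and 13 and 8 in RIP input, did not pass the filter. The single genes chr11.tRNA393-IleAAT (5 and 6 counts in hm5C RIP, 10 and 20 in RIP input) and chr13.tRNA100-IleAAT (12 and 13 in hm5C RIP, 29 and 25 in RIP input) were tested. Their log2 changes were -0.25 (adjusted p = 0.774) and 0.08 (adjusted p = 0.915). Neither was called by edgeR or DESeq2 and neither had an unadjusted p under 0.05, where 51.9% of all features were called. Without Acsl6, which took most of the hm5C RIP counts, the IleAAT change was -0.26 (adjusted p = 0.659). When library size alone was also used for scaling it was 1.34 (adjusted p = 0.0182), but that scaling put the median of all sums at 2.00 and called 66.1% of them higher, so IleAAT lay below the general shift. As a share of tRNA counts isoleucine took 0.115% and 0.117% in hm5C RIP, against 0.0835% and 0.0685% in RIP input (log2 ratio 0.62, exact permutation p = 0.333, the smallest 2 against 2 allow). Of the 3 pathway genes tested in RIP, Trmt1, a tRNA guanine methyltransferase, was called higher (log2 2.45, adjusted p = 0.00430) and Rpph1 lower (log2 -1.35, adjusted p = 0.00541).

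In the fragment table, 49 of the 51 isoleucine rows had at least 1 count. The counts came from 9 IleAAT and 4 IleTAT genes, while chr16.tRNA315-IleAAT, chr1.tRNA583-IleTAT, chr2.tRNA1506-IleGAT and chr4.tRNA62-IleAAT had few or none. The 9 IleAAT genes shared their tRF3a counts almost evenly. Within a library the variance of counts among these 9 copies was 0.325 to 1.56 times their mean (median 0.873 over 12 libraries), where counting error alone gives a ratio near 1. The ratio had a median of 1.80 for IleAAT tRF5 and 2.51 for IleTAT tRF3a, whose 4 copies were less even. The CLIP and RIP counts, by comparison, left most of these IleAAT copies at 0. Copies may share reads and were not treated as separate measurements, and sums over copies are given beside them.

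Isoleucine fragments were richer in tRF3a than the pooled fragments of all other tRNAs in all 12 libraries. The pool gives most weight to the tRNAs with most counts. No such share was computed for other single isoacceptors, so the trait is not shown to be particular to isoleucine. In experiment 2 tRF3a made up 82.6%, 80.9% and 76.5% of isoleucine fragment counts in Tet2 KO, against 75.1%, 75.4% and 65.2% in E14. Among all other tRNAs tRF3a made up 18.8%, 20.03% and 15.5% in Tet2 KO, against 15.1%, 12.1% and 11.99% in E14. In experiment 1 the isoleucine share was 48.7%, 35.4% and 27.5% in Tet2 KO, against 29.2%, 47.1% and 49.2% in WT, and that of other tRNAs was 31.3%, 28.1% and 25.4% in Tet2 KO, against 7.86%, 15.6% and 17.5% in WT. Pooled, other tRNAs thus had a larger tRF3a share in each Tet2 KO library of experiment 1 than in any WT library, while the isoleucine values of the 2 groups overlapped.

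**Figure D2:**
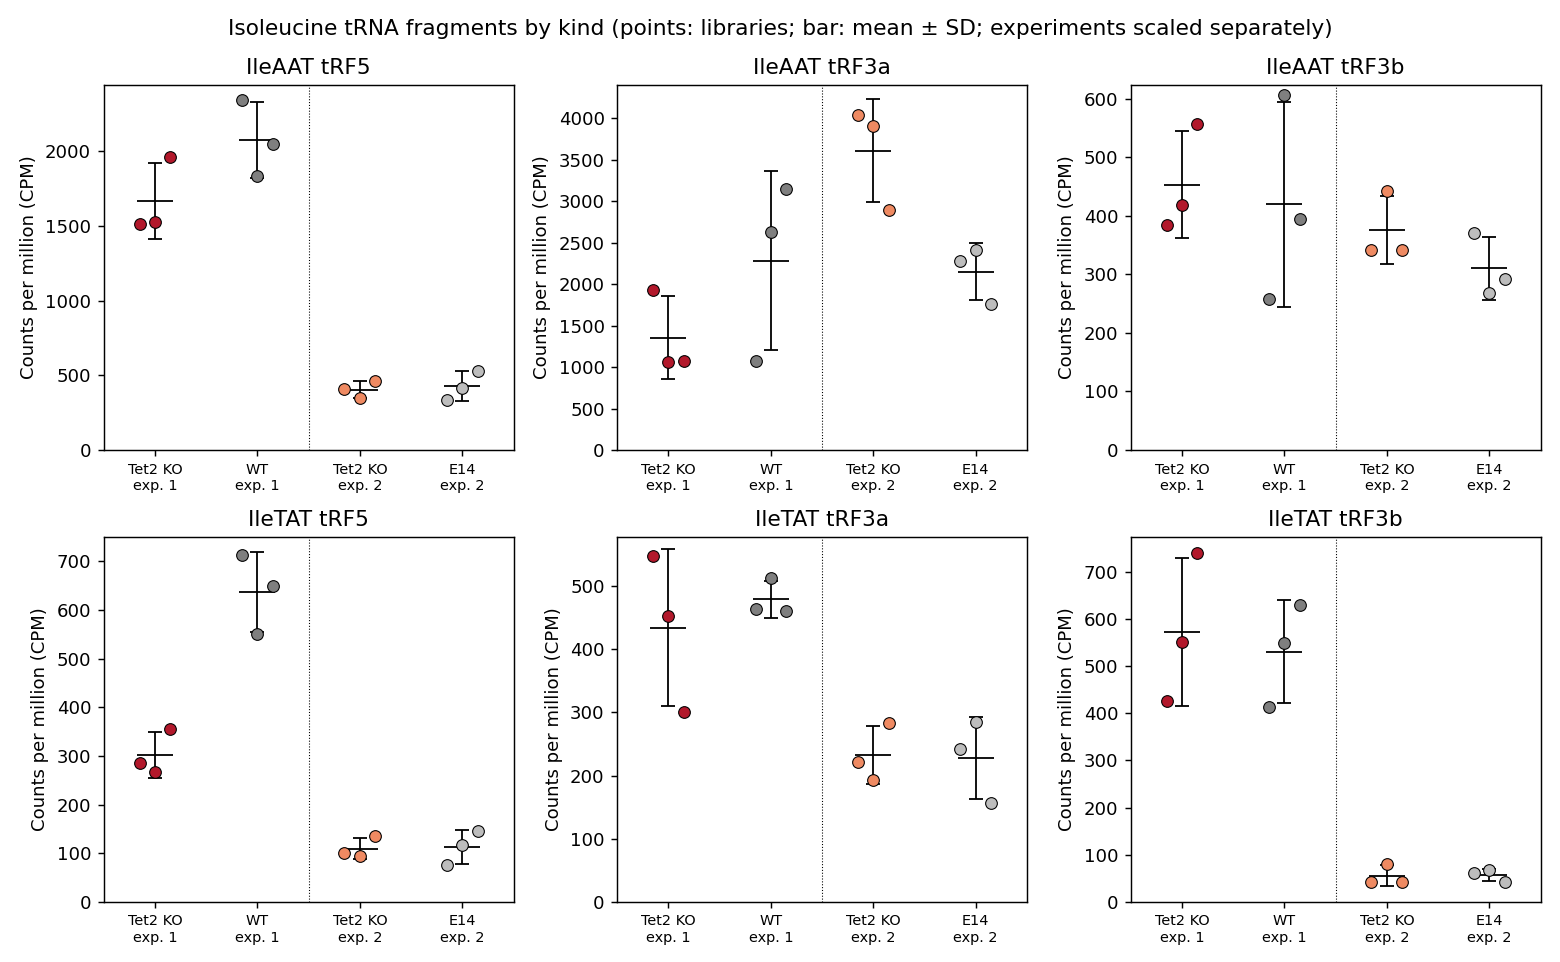
Summed fragment counts of IleAAT (top) and IleTAT (bottom) in CPM by kind (linear axes from 0), with points for libraries and bars for the mean ± SD of 3 libraries; the dotted line parts the experiments, which were scaled separately. IleTAT tRF5 is lower in all Tet2 KO libraries of experiment 1 and IleAAT tRF3a higher in all Tet2 KO libraries of experiment 2.

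In experiment 1, Tet2 KO cells had less IleTAT tRF5 than WT cells. These are bulk cultures, so fewer cells with the RNA and less RNA per cell cannot be told apart, here or in experiment 2. The sum over IleTAT genes was 286, 266 and 356 CPM in Tet2 KO, against 712, 550 and 648 CPM in WT, and the groups did not overlap. The means were 303 ± 47.3 CPM in Tet2 KO and 637 ± 81.7 CPM in WT (SD, n = 3 each), and the log2 change came to -1.08 (SE 0.23, adjusted p = 0.00142 in edgeR). This was 1 of 6 isoleucine sums tested, none of which was called higher, where 20.7% of all sums were called lower and 25.9% higher. tRF5 fragments were lower in general: the median of the 46 tRF5 sums was -0.55, 18 of them were called lower, and the IleTAT share of tRF5 counts was 0.0691%, 0.0670% and 0.0756% in Tet2 KO, against 0.0488%, 0.0739% and 0.0941% in WT (exact permutation p = 0.9). Scaled by library size alone, which moved the median of all sums by 0.53, the IleTAT tRF5 change was -0.55 (adjusted p = 0.193), with 34.8% of all sums called higher and 9.63% lower.

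Single fragments of experiment 1 gave 3 calls among 27 isoleucine rows tested, all lower, where 16.7% of all rows tested were called lower and 21.2% higher. Among tRF5 rows, of which 34.8% were called lower, chr13.tRNA981-IleTAT tRF5 had 67.7, 91.7 and 27.5 CPM in Tet2 KO, against 203, 131 and 242 CPM in WT. Its libraries did not overlap (log2 change -1.55, SE 0.43, adjusted p = 0.0197), and it passed the filter mainly through WT. The row chr13.tRNA999-IleTAT tRF5 had 160, 91.7 and 128 CPM in Tet2 KO, against 274, 245 and 270 CPM in WT, again apart (log2 change -1.04, SE 0.27, adjusted p = 0.0166). The 9 IleAAT tRF5 rows were not called, with log2 changes of -0.52 to 0.21 and a median of -0.20, where the median of all tRF5 rows was -0.76.

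The third call lay among tRF3a rows. Of all tRF3a rows tested 45.1% were called higher in Tet2 KO and 8.7% lower, with a median log2 change of 0.61. None of the 9 IleAAT tRF3a rows tested had a positive log2 change, and their median was -0.62. Summed, IleAAT tRF3a was number 11 from the lowest of 44 tRF3a sums, of which 9 were called lower and 20 higher, so other tRNAs had lower values still. The called row, chr13.tRNA92-IleAAT tRF3a, had 166, 113 and 73.2 CPM in Tet2 KO, against 162, 350 and 335 CPM in WT, so that WT replicate 1 lay below the highest Tet2 KO library (log2 change -1.23, SE 0.38, adjusted p = 0.0341). The IleAAT tRF3a sum showed the same shape, with 1931, 1064 and 1069 CPM in Tet2 KO, against 1074, 2631 and 3148 CPM in WT (log2 change -0.75, SE 0.50, adjusted p = 0.261). Without WT replicate 1, the library that stood apart, this sum had a log2 change of -1.08 (edgeR, adjusted p = 0.000604). All 9 rows were then called lower, and the count of isoleucine rows called lower was 11 in place of 3. Of all rows tested in that fit 166 of 643 were called lower, against 100 of 598 with every library. The isoleucine count was 1 without WT replicate 3 (all rows: 111 of 626) or without Tet2 KO replicate 2 (30 of 637). It was 0 without Tet2 KO replicate 3 (all rows: 45 of 639) or with library size alone (52 of 598). Next in order of p were chr11.tRNA393-IleAAT tRF3a, at 178, 106 and 156 CPM in Tet2 KO, against 152, 236 and 400 CPM in WT (adjusted p = 0.0979), and the abundant chr13.tRNA92-IleAAT tRF5, at 258, 205 and 247 CPM in Tet2 KO, against 274, 289 and 456 CPM in WT (adjusted p = 0.127). The sixth, chr13.tRNA999-IleTAT tRF3a, had 80.01, 70.6 and 45.8 CPM in Tet2 KO, against 102, 105 and 102 CPM in WT (adjusted p = 0.183). The remaining sums of experiment 1 were not called, with log2 changes of -0.13 for IleTAT tRF3a, 0.09 each for IleAAT and IleTAT tRF3b and -0.32 for IleAAT tRF5.

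**Figure D3:**
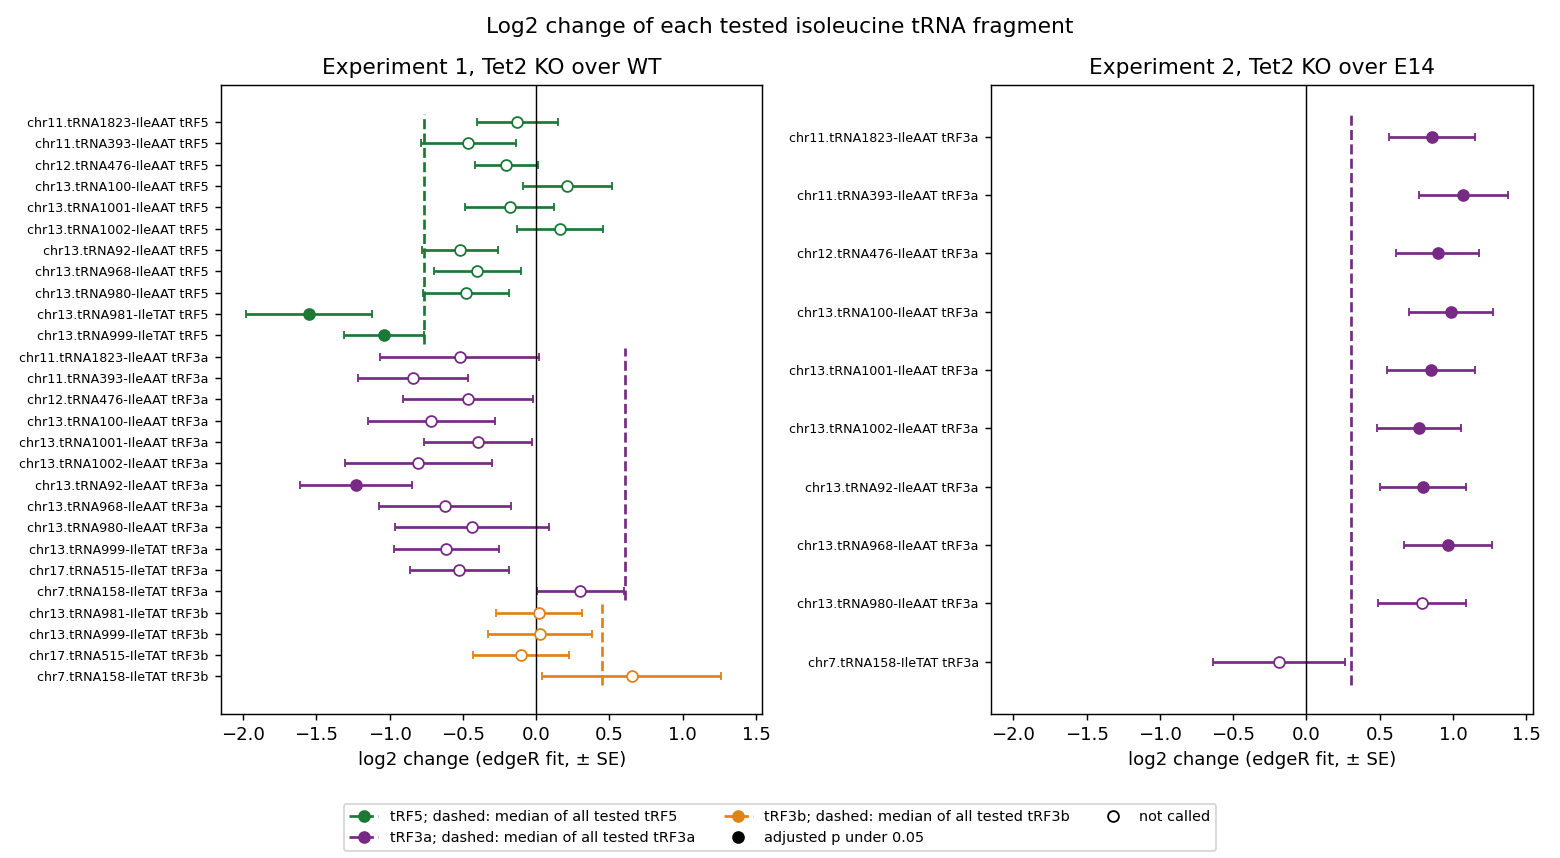
Log2 change (edgeR fit, ± SE) of every isoleucine fragment row tested, in experiment 1 (left, 27 rows) and experiment 2 (right, 10 rows), with filled points for rows called and dashed lines at the median of all tested rows of that kind. In experiment 1 the IleAAT tRF3a rows lie left of 0 and of the dashed line at 0.61, while in experiment 2 they lie right of the line at 0.31.

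In experiment 2, Tet2 KO cells had more IleAAT tRF3a than E14 cells. The sum had 766, 627 and 408 counts in Tet2 KO, against 301, 288 and 169 in E14, or 4033, 3901 and 2895 CPM in Tet2 KO, against 2278, 2408 and 1761 CPM in E14. The groups did not overlap, and the means were 3610 ± 622 CPM in Tet2 KO and 2149 ± 342 CPM in E14 (SD, n = 3 each). The log2 change was 0.75 (SE 0.20, adjusted p = 0.0321 in edgeR), 1 call higher and none lower among 5 isoleucine sums, where 6.5% of all sums were called higher and 4.88% lower (12.2% and 3.25% with library size alone). The sum was number 5 from the top of 43 tRF3a sums, whose median log2 change was 0.12. The call was lost without E14 replicate 3 (log2 0.62, adjusted p = 0.158), without Tet2 KO replicate 1 (0.72, adjusted p = 0.125), without Tet2 KO replicate 2 (0.74, adjusted p = 0.0652) and with no count filter (0.79, adjusted p = 0.0528). No sum of any tRNA was called without E14 replicate 3 (127 tested), without Tet2 KO replicate 1 (128) or with no count filter (150). Without Tet2 KO replicate 2, 5 of 126 sums were called higher, against 8 of 123 with every library.

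The single gene copies gave like values. Of the 51 rows 10 passed the filter, all of them tRF3a, and 8 were called higher and none lower, where 9.64% of all rows were called higher and 5.42% lower, and 20.6% of tRF3a rows higher. The 8 were IleAAT copies with log2 changes of 0.77 to 1.07. The row chr11.tRNA393-IleAAT tRF3a had 451, 400 and 368 CPM in Tet2 KO, against 249, 193 and 133 CPM in E14 (log2 1.07, SE 0.30, adjusted p = 0.00588). The row chr13.tRNA100-IleAAT tRF3a had 623, 497 and 319 CPM in Tet2 KO, against 257, 208 and 265 CPM in E14 (log2 0.99, SE 0.29, adjusted p = 0.00693). In both rows the lowest Tet2 KO library lay above the highest E14 library.

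The other 6 called copies had larger p-values. For chr13.tRNA968-IleAAT tRF3a the levels were 457, 458 and 326 CPM in Tet2 KO, against 249, 238 and 142 CPM in E14 (log2 0.97, adjusted p = 0.0118). For chr12.tRNA476-IleAAT tRF3a they were 611, 445 and 368 CPM in Tet2 KO, against 313, 260 and 190 CPM in E14 (log2 0.90, adjusted p = 0.0155). For chr11.tRNA1823-IleAAT tRF3a they were 480, 458 and 305 CPM in Tet2 KO, against 265, 238 and 180 CPM in E14 (log2 0.86, adjusted p = 0.0292). None of these 3 copies overlapped between the groups. The share of all features without overlap was not counted in any comparison, so separation alone sets no member apart. For chr13.tRNA1001-IleAAT tRF3a the levels were 451, 432 and 298 CPM in Tet2 KO, against 224, 230 and 199 CPM in E14 (log2 0.85, adjusted p = 0.0349), and for chr13.tRNA1002-IleAAT tRF3a 486, 484 and 361 CPM in Tet2 KO, against 345, 253 and 180 CPM in E14 (log2 0.77, adjusted p = 0.0465). The last call was chr13.tRNA92-IleAAT tRF3a (log2 0.80, adjusted p = 0.0436), the copy called lower in experiment 1, and here its groups overlapped, at 290 CPM in the lowest Tet2 KO library and 305 CPM in the highest E14 library. The ninth copy, chr13.tRNA980-IleAAT tRF3a, had a log2 change of 0.79 (adjusted p = 0.0527). The scarce chr4.tRNA62-IleAAT tRF3a had 3, 3 and 2 counts in Tet2 KO, against 0 in each E14 library, and was below the filter. The 1 IleTAT row tested, chr7.tRNA158-IleTAT tRF3a, had a log2 change of -0.19 (SE 0.45, adjusted p = 0.865). The number of copies called depended on the fit, with 3 called under DESeq2 or without E14 replicate 2, 1 without E14 replicate 3 or without Tet2 KO replicate 2, and 0 without Tet2 KO replicate 1. Of all rows tested, 34 of 498 were called higher under DESeq2, 33 of 519 without E14 replicate 2 and 30 of 527 without E14 replicate 3. They were 26 of 514 without Tet2 KO replicate 2 and 16 of 511 without Tet2 KO replicate 1, against 48 of 498 in the main fit.

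Other isoleucine sums of experiment 2 were not called. IleAAT tRF3b was at 375 ± 57.9 CPM in Tet2 KO and 310 ± 54.0 CPM in E14, IleAAT tRF5 at 405 ± 56.4 CPM in Tet2 KO and 427 ± 99.6 CPM in E14, and IleTAT tRF5 at 109 ± 22.3 CPM in Tet2 KO and 113 ± 35.3 CPM in E14. Their log2 changes were 0.27 (SE 0.24), -0.07 (SE 0.24) and -0.03 (SE 0.30), with adjusted p from 0.519 to 0.978, and IleTAT tRF3a was at 233 ± 46.6 CPM in Tet2 KO and 228 ± 65.2 CPM in E14 (log2 change 0.00, SE 0.26).

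**Figure D4:**
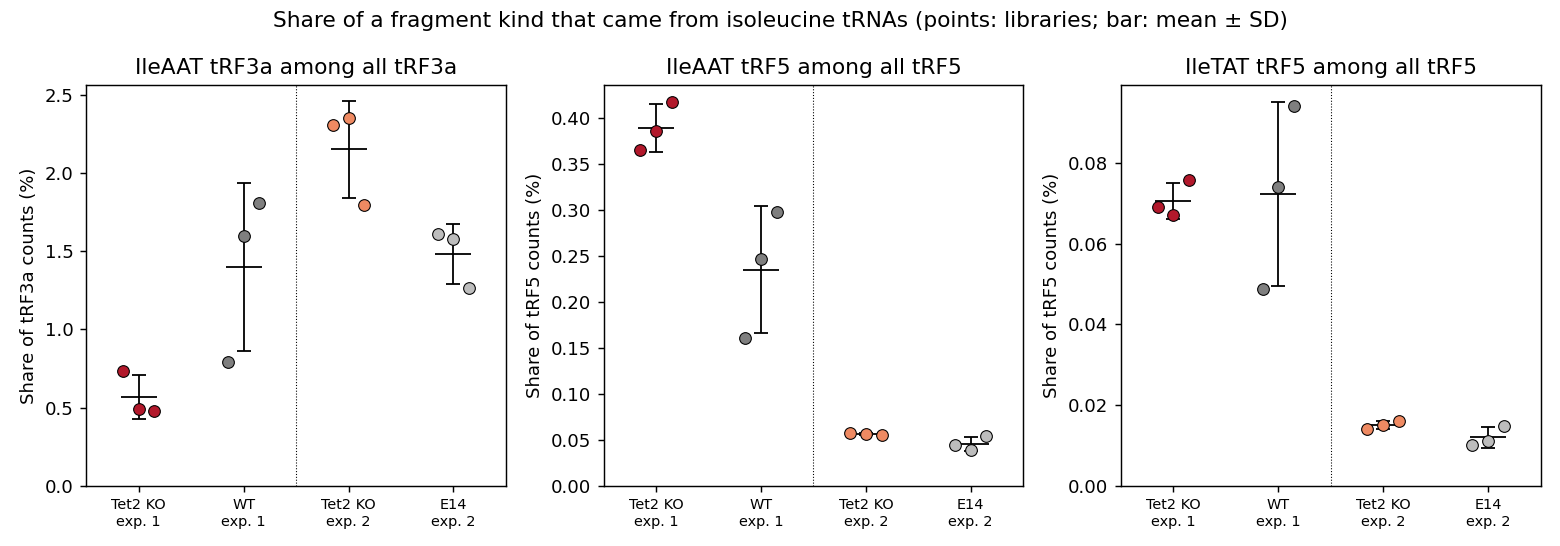
Share of a fragment kind's counts that came from isoleucine tRNAs, in percent (linear axes from 0), with points for libraries and bars for the mean ± SD of 3 libraries; the dotted line parts the experiments. The IleAAT share of tRF3a is lower in Tet2 KO than in WT and higher in Tet2 KO than in E14, with no overlap in either pair.

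The changes of the IleAAT tRF3a and IleTAT tRF5 sums were called different between the 2 experiments, but leaving out 1 library ended the call in 8 of 12 fits for IleAAT tRF3a and 10 of 12 for IleTAT tRF5. In a fit over all 12 libraries the difference of log2 changes, experiment 2 minus experiment 1, was 1.54 for IleAAT tRF3a (SE 0.48, adjusted p = 0.0368) and 1.12 for IleTAT tRF5 (SE 0.38, adjusted p = 0.0396), where 15.3% of all sums were called higher. The median of the 47 tRF5 sums in this difference was 0.58, and as a share of tRF5 counts the IleTAT difference was 0.34 (exact permutation p = 0.355, 0.608 adjusted over 12 such tests). Single rows gave no call by edgeR, where 16.3% of all rows were called in either direction (2.58% higher and 13.8% lower; 2.01% and 0.143% with library size alone), although 5 had an unadjusted p under 0.05 and DESeq2 called 2. Both sums lost their call without any 1 of WT replicates 2 and 3, Tet2 KO replicates 2 and 3 of experiment 1, E14 replicates 1 and 2 and Tet2 KO replicate 1 of experiment 2, at adjusted p of 0.0507 to 0.329, as they did with library size alone (0.127 for IleAAT tRF3a and 0.256 for IleTAT tRF5). IleAAT tRF3a also lost it without Tet2 KO replicate 2 of experiment 2 (0.0707), and IleTAT tRF5 without WT replicate 1 (0.0769), Tet2 KO replicate 1 of experiment 1 (0.360) and Tet2 KO replicate 3 of experiment 2 (0.0878). The values with 1 library left out ran from 0.97 (without Tet2 KO replicate 2 of experiment 1) to 1.87 (without WT replicate 1) for IleAAT tRF3a, with 1.00 and 1.02 without WT replicate 2 and without Tet2 KO replicate 3 of experiment 1. For IleTAT tRF5 they ran from 0.51 (without Tet2 KO replicate 1 of experiment 1) to 1.43, with 0.54 without Tet2 KO replicate 2 of experiment 1 and 0.67 without WT replicate 2. Kit, control line and knockout set cannot be told apart in this difference.

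Shares within a kind do not depend on the scaling between kinds. IleAAT took 0.733%, 0.489% and 0.480% of tRF3a counts in Tet2 KO of experiment 1, against 0.792%, 1.60% and 1.81% in WT (log2 ratio -1.24). In experiment 2 it took 2.31%, 2.35% and 1.79% in Tet2 KO, against 1.61%, 1.58% and 1.26% in E14 (log2 ratio 0.53). In each experiment every Tet2 KO library lay on 1 side of every control library, and the exact permutation p was 0.1, the smallest that 3 against 3 allow. The difference of the 2 log2 ratios was 1.78 (exact permutation within experiments, two-sided, p = 0.005, the smallest of 400 arrangements, adjusted p = 0.06 over 12 such differences). As a share of all fragment counts the difference was 1.14 (exact p = 0.205). The IleAAT share of tRF5 counts was 0.365%, 0.385% and 0.417% in Tet2 KO of experiment 1, against 0.161%, 0.246% and 0.297% in WT (exact p = 0.1, adjusted p = 0.3), and 0.0568%, 0.0565% and 0.0552% in Tet2 KO, against 0.0443%, 0.0392% and 0.0541% in E14 (exact p = 0.1, adjusted p = 0.3). That share was higher in all Tet2 KO libraries than in all control libraries of the same experiment.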

How the data were processed

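The deposited tables hold raw read counts, whole numbers per tRNA gene, Ensembl gene or fragment row, per the values in the files. The submitters' processing notes name Bowtie2 2.2.6, STAR 2.5.3a, cutadapt, UMI-tools and build mm10 as used by the authors; the counting tool, annotation, strand and treatment of multiply matching reads are not given in the sources used here. The series' design text calls replicates biological. Samples were grouped by title. Between replicates, chi-square per degree of freedom was 1.66 to 29.3, above counting error in every pair.

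Counts were tested with edgeR 4.0.16 in R 4.3.3 over whole tables, as deposited and summed over genes of 1 isoacceptor (and fragment kind): TMM factors, filterByExpr (minimum count 10, minimum total 15), robust quasi-likelihood fit, F-test, Benjamini-Hochberg adjustment, threshold 0.05. CPM are counts scaled to 1e+06 per TMM-scaled library. CLIP was fitted over 8 libraries, RIP over 4, each small RNA experiment over 6 and their difference over 12. The tests were run on simulated counts that held the same change in both clones and in both experiments. With no true difference between clones or experiments, that simulation could not check how well such differences are found. Shares were compared by exact two-sided permutation; the limit for a count of 0 is 3 counts, and covers counting error only. Every isoleucine feature called is named, with values per library for those of smallest p and highest count; pathway genes are the 6 with the smallest p in CLIP and those called in RIP; Iars2 and Ssb were added after their values were seen. Alternatives were DESeq2 1.42.0 (size factors, Wald test), library size alone, no count filter, a replicate block, each library left out, the most counted fragment or Acsl6 left out, and, added after seeing the data, shares of all counts. Members, lists and tests were chosen with earlier results of these data known. RefSeq (GRCm38.p6) gave gene lengths and positions.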

Additional observations from a re-analysis of the deposited data

Results flagged for a closer look

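IleAAT tRF3a was called different in its change between the 2 small RNA experiments. The log2 change was -0.75 for Tet2 KO over WT and 0.75 for Tet2 KO over E14, and the difference, experiment 2 minus experiment 1, was 1.54 in the joint fit (edgeR, adjusted p = 0.0368). WT replicate 1, with 104 counts against 287 and 335 in the other WT libraries, moves with this value, which was 1.87 without it (adjusted p = 0.000233). The call was lost in 8 of the 12 fits that left out 1 library, with values down to 0.97 and adjusted p up to 0.155, and without the most counted fragment (1.05, adjusted p = 0.0762).

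IleTAT tRF5 was also called, with a difference of 1.12 (adjusted p = 0.0396), from a log2 change of -1.08 for Tet2 KO over WT and -0.03 for Tet2 KO over E14. In experiment 2 it rests on 19, 15 and 19 counts in Tet2 KO and 10, 14 and 14 in E14. The call was lost in 10 of the 12 fits that left out 1 library, with values down to 0.51, and with DESeq2 (0.91), library size alone (0.79) and the most counted fragment left out (0.55). As a share of tRF5 counts the difference was 0.34 (exact permutation p = 0.355, 0.608 adjusted over 12 such tests).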

How the results depend on the processing

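Of 38 main results, which were counts of calls and shares, 23 held under every alternative run. A count held if it stayed equal or close to its main value. A share held if it kept its sign and moved by less than its spread among libraries. Most of the 23 were counts of 0 in a direction without calls, so they say little of how calls hold. Of 105 values for single features and sums, 64 kept their call or lack of one throughout, though uncalled values could change sign. Where results did not hold, the cause was not tested. Of tRNA genes called higher in clone 75 (3), the replicate block left 1 and leaving out 1 library 1 to 2; for the sums (2) leaving out gave 1 to 2. Without Acsl6 and with library size alone, 1 gene and 2 sums were called higher in hm5C RIP, and IleAAT reversed to 1.34, where 65.6% of all features and 66.1% of all sums were called higher, with medians of 1.95 and 2.00. Fragments called lower in experiment 1 (3) were 0 with library size alone and 0 to 11 with 1 library left out, and sums (1) 0 and 1 to 2. Of all fragment rows there, 100 were called lower in the main fit and 30 to 166 with 1 library left out. Fragments called higher in experiment 2 (8) were 5 with DESeq2 size factors, 4 with no count filter and 3 with the DESeq2 Wald test. With 1 library left out they were 0 to 9. Of all fragment rows there, 48 were called higher in the main fit, 39, 38 and 34 in those alternatives and 16 to 51 with 1 library left out. The 1 sum was lost (0) with no filter and with the replicate block (log2 0.75, adjusted p = 0.113), where no sum of any tRNA was called. Leaving out 1 library gave 0 to 1 sums called. In the difference of experiments, fragments called (0) were 2 with DESeq2 size factors, 5 with no filter, 2 with the Wald test and 0 to 10 with 1 library left out. The 2 sums called there became 1 with DESeq2 size factors or the Wald test, 0 with library size alone, the replicate block or the most counted fragment left out, and 0 to 2 with 1 library left out. Library size alone moved the median of all fragment rows by 0.46 in experiment 1 and 0.11 in experiment 2, and called 27.9% of the rows of experiment 1 higher and 8.70% lower.

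As shares of all counts, an alternative chosen after seeing the data, the log2 ratio was 3.08 in CLIP, 0.20 in RIP, -0.13 and 1.01 for IleAAT tRF3a in experiments 1 and 2, and -0.53 for IleTAT tRF5 in experiment 1. That last value, 0.01 as a share of tRF5, was -0.24 without WT replicate 1, -0.04 without Tet2 KO replicate 3 and at most 0.23. Libraries with the same replicate number did not deviate together (correlations from -0.35 to 0.28 over the small RNA pairs), so the numbers were not taken to pair samples, and the replicate block changed no call beyond those above and single features. Few counts limit the CLIP and RIP values of single genes.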
